A study of Rattus norvegicus with 14 samples.

Results

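Immune checkpoint genes encode the receptors, ligands and enzymes that restrain T cells. The list held 10 of them, Cd274, Pdcd1lg2, Pdcd1, Ctla4, Cd80, Cd86, Havcr2, Lag3, Ido1 and Cd276, and a gene was kept where the array has a probe set annotated to that gene alone. This left 5 genes (Ctla4, Cd80, Cd86, Ido1 and Cd276) of the 14217 genes in the series with such a probe set, read by 7 probe sets. Cd274, Pdcd1lg2, Pdcd1, Havcr2 and Lag3, the other 5, were not analysed here. The genes were measured in 11 malignant peritoneal mesotheliomas of male Wistar rats and in 3 control peritoneal tissues, each on its own Affymetrix rat genome array. The tumors followed a single intraperitoneal injection, in artificial lung medium, of multiwalled carbon nanotubes (MWCNT B, 2 tumors; MWCNT C, 3; MWCNT D, 3) or of amosite asbestos (3 tumors), and by histology 5 were sarcomatoid, 3 biphasic and 3 epithelioid. The control rats are sham-treated in the labels and untreated in the study's methods. Tumors were chosen by inducer and by the frozen material at hand, which leaves type and inducer partly mixed, and the labels name the replicates biological.

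T cells need a second signal beside the antigen receptor. Cd80 and Cd86 on antigen-presenting cells give it through Cd28, and Ctla4, a receptor on activated and regulatory T cells, binds the same pair of ligands and opposes it. Cd276, also called B7-H3, is a ligand of the same B7 family that many solid tumors carry. Ido1 starts the breakdown of tryptophan to kynurenine, which limits T cell growth, and interferon gamma is its best known inducer. Macrophages and dendritic cells are the usual sources of Cd80 and Cd86, and mesothelioma is known for large numbers of macrophages.

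The 250 bases before an annotated start of Cd86 and Cd276 are shown because these are the 2 genes with clear signals on every tumor array and a rise over the controls. They are RefSeq sequences of the GRCr8 build, from Cd86 at chr11:77669031-77669280 on the plus strand and Cd276 at chr8:67863919-67864168 on the minus strand, with motif matches in capitals.
Cd86: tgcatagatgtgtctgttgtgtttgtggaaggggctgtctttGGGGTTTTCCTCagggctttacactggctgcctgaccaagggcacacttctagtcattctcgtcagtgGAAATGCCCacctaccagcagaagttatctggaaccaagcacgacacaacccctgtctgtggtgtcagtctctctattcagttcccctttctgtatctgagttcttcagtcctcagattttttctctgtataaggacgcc
Cd276: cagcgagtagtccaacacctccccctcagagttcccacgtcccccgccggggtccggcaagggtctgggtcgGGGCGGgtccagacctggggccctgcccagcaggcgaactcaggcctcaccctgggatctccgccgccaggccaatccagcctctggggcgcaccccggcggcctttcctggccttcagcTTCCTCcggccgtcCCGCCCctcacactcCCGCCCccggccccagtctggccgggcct
In the Cd86 window the capitals mark 2 matches to a kappa B-type motif (GGGNNTTTC, either strand) and 1 match to the core bound by PU.1, a myeloid transcription factor (GAGGAA, either strand), which overlaps the first kappa B match. In the Cd276 window they mark 3 GC boxes (GGGCGG, either strand) and 1 PU.1 core, and 73.6% of its bases are G or C, against 48.8% in the Cd86 window. Of 33469 rat promoter windows of this length, 3.7% held the kappa B-type motif, 23.34% the PU.1 core and 30.47% the GC box. Neither window held the core of the interferon-stimulated response element (GAAANNGAA, in 8.12% of windows), the gamma interferon activation site (TTCNNNGAA, 7.67%) or a TATA box (TATAAA, 12.93%), which says only that these letters are not in these windows. In GRCr8, RefSeq places Cd80 at chr11:75760073-75798978 and Cd86 at chr11:77647565-77706178, Ctla4 at chr9:69812859-69819959, Ido1 at chr16:74133259-74145328 and Cd276 at chr8:67833587-67863918. Both Cd80 windows and the Ctla4 window were searched in the same way. In 1 Cd80 window there was an interferon-stimulated response element core, at -206 from the start. The other held a gamma interferon activation site at -73 and a GC box at -146. The Ctla4 window held 1 match, a TATA box at -98. These too say only which letters are there, and for Ido1 no sequence is shown.

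Values are log2(signal + 1), where the signal is the authors' linear PLIER intensity of a probe set, and where a gene had 2 probe sets the one with the higher mean was used. Log2 signals below 5 were treated as near background, which held for 16.2% to 19% of probe sets on the tumor arrays and 21.8% to 24.4% on the control arrays. A gene was called at a Benjamini-Hochberg adjusted p below 0.05 over 31042 probe sets, in limma's moderated test, and a fold change over 2. Array-wide differences touched every comparison with the controls. The 3 controls held skeletal muscle RNA (11 of 11 muscle genes fell in the tumors, with a mean log2 signal of 5.22 to 5.90 over the list in tumors and 14.78 to 14.86 in controls), and the median probe set was 0.34 higher in tumors. Mesothelial genes rose in tumors (7 of 10, among them Wt1 and Msln), and the mesothelial marker Calb2 averaged 7.44 in tumors and 7.38 in controls. The tumor MWCNT D replicate 2, a sarcomatoid one, stood apart with T cell genes (list mean 10.54, other tumors 5.31 to 6.71), B and plasma cell genes (12.69) and pancreatic enzymes (14.06). It also had the lowest mesothelial list mean of the tumors (6.98, other tumors 7.83 to 11.69). The tumor amosite replicate 1 also held pancreatic enzymes (list mean 14.86), while the remaining tumors had 5.54 to 6.32 and the controls 4.31 to 4.81. In bulk tissue, fewer cells of a type and less RNA per cell cannot be told apart.

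Of the 5 measured genes, 3 rose in the mesotheliomas over the control tissues: the costimulatory ligands Cd86 and Cd80 and the B7 family member Cd276. The receptor Ctla4 and the enzyme Ido1 were not called in any comparison. Over all probe sets, 24.5% were called higher in tumors, and the 3 of 5 are to be read against that share. After median centring of every array, these 3 genes were still called. Of the 31042 probe sets, 10301 were then called, 4801 of them higher. Higher calls were 46.6% of all calls, in place of 70.2%. Counts of lists after centring, given below, are to be read against these numbers. Cd80 was near background in 9 of the 11 tumors and all 3 controls. With signals below 5 raised to 5, its change was 0.02 and only Cd86 and Cd276 were called.

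Cd86 was higher in every tumor than in any control. Its signals were 7.87 and 8.51 in the MWCNT B tumors, 7.93, 7.20 and 7.30 in the MWCNT C tumors, 7.98, 9.43 and 7.80 in the MWCNT D tumors and 6.77, 8.92 and 8.42 in the amosite tumors, against 4.96, 5.79 and 5.46 in the controls. The lowest tumor was amosite replicate 1, an epithelioid one, and the highest MWCNT D replicate 2. The tumor mean was 8.01 ± 0.78 (SD, n = 11) and the control mean 5.40 ± 0.42 (SD, n = 3), a log2 change of 2.61 (SE 0.45, limma adjusted p 0.000213, exact two-sided permutation p 0.00275, the smallest that 364 splits allow). The second Cd86 probe set had 5.87 to 8.31 in tumors and 0.05, 0.06 and 4.13 in controls, so that its log2 change of 5.40 rests on control values near background. Without MWCNT D replicate 2 the change of the main probe set was 2.46.

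Cd80, the other ligand of Cd28 and Ctla4, was dim on every array. It read 4.20 and 3.96 in the MWCNT B tumors, 4.02, 4.31 and 3.40 in the MWCNT C tumors, 4.12, 5.21 and 5.04 in the MWCNT D tumors and 4.45, 4.46 and 4.16 in the amosite tumors, against 1.37, 1.51 and 0.01 in the controls. The groups did not overlap, yet 9 of the 11 tumors and all 3 controls were below the log2 signal of 5 treated as near background. The log2 change was 3.34 (SE 0.35, limma adjusted p 2.77e-06, exact permutation p 0.00275, the smallest possible), and with signals below 5 raised to 5 it was 0.02 (adjusted p 0.687), so that the call ends at that floor.

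Ctla4, the inhibitory receptor of that ligand pair, overlapped between tumors and controls. It ranged over 5.78 to 6.44 in tumors (median 5.93) and over 5.85 to 5.96 in controls, and its highest value was that of MWCNT D replicate 2. The log2 change was 0.09 with a 95% interval of -0.22 to 0.40 (limma adjusted p 0.606), an interval that does not reach a 2-fold change. The signal was low, with a mean of 5.99 over all arrays. It was only 6.44 in MWCNT D replicate 2, where the T cell list mean was 10.54. The interval thus bounds the change of this signal, and how well the probe set follows the transcript was not tested.

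Cd276 rose in tumors with 1 exception. The values were 10.42 and 9.82 in the MWCNT B tumors, 9.68, 9.26 and 10.60 in the MWCNT C tumors, 10.08, 7.33 and 9.51 in the MWCNT D tumors and 9.83, 10.55 and 9.50 in the amosite tumors, against 7.77, 7.87 and 7.57 in the controls. Of the 11 tumors 10 were above all controls, and MWCNT D replicate 2 was below all of them. MWCNT D replicate 2 also had the lowest mesothelial list mean of the tumors (6.98), and the part of this in its Cd276 value was not tested. The means were 9.69 ± 0.90 (SD, n = 11) in tumors and 7.74 ± 0.15 (SD, n = 3) in controls, with a log2 change of 1.95 (SE 0.50, limma adjusted p 0.00445, exact permutation p 0.011). Without that 1 tumor the groups did not overlap, and the change was 2.19 (limma adjusted p 1.66e-05, exact permutation p 0.0035, the smallest that 286 splits allow). The second probe set had 7.75 to 9.03 in 10 tumors, 5.56 in MWCNT D replicate 2 and 0.09, 4.64 and 4.08 in controls. On it that tumor was again the lowest one, but above the controls, which were near background.

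Ido1 stayed near background. Tumors ranged over 4.43 to 5.43 and controls over 4.51 to 4.80, and 6 of 11 tumors and all 3 controls were below a log2 signal of 5. The log2 change was 0.34 (95% interval -0.10 to 0.79, limma adjusted p 0.174, exact permutation p 0.121), and no difference was detectable at this signal.

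**Figure D1:**
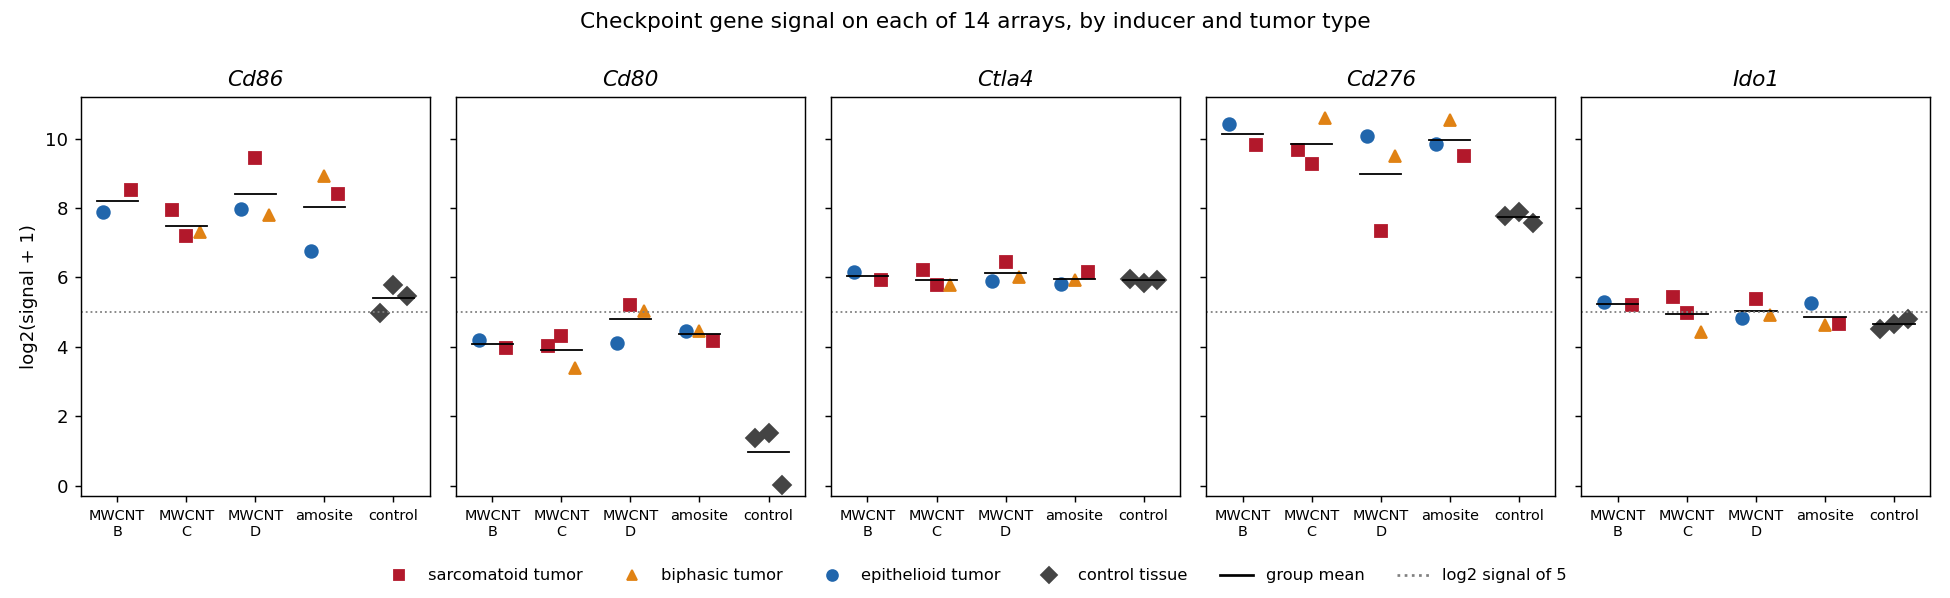
Log2(signal + 1) of Cd86, Cd80, Ctla4, Cd276 and Ido1 on each of the 14 arrays, by inducer with the controls at the right, with tumor type as symbol and the group mean as a bar. Cd86 is above every control in all 11 tumors, Cd276 in 10 of 11 with MWCNT D replicate 2 at 7.33, Cd80 is mostly under the dotted line at 5, and Ctla4 and Ido1 overlap the controls.

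The same question was asked for each inducer and each tumor type, always against the same 3 controls, so these comparisons are not independent. Cd86 and Cd80 were called higher in all 7 of them. The log2 changes of Cd86 were 2.79 with MWCNT B, 2.07 with MWCNT C, 3.00 with MWCNT D and 2.63 with amosite, with SEs of 0.56 to 0.63. By type they were 2.89 in sarcomatoid, 2.60 in biphasic and 2.14 in epithelioid tumors, with SEs of 0.49 to 0.55. The changes of Cd80 lay between 2.95 (MWCNT C) and 3.83 (MWCNT D), all from control values near background. With a pseudocount of 16 in place of 1 the Cd80 change was below 2-fold, and not called, in MWCNT B (0.90), MWCNT C (0.82) and epithelioid tumors (0.996), and with signals below 5 raised to 5 it was called in none of the 7. Cd276 changed by 2.38 in MWCNT B tumors, 2.11 in MWCNT C tumors and 2.22 in amosite tumors, and by 1.24 (95% interval -0.10 to 2.57, limma adjusted p 0.121) in MWCNT D tumors, where it was not called. Without MWCNT D replicate 2 the last of these was 2.06 (adjusted p 0.00305). By tumor type Cd276 changed by 1.38 in sarcomatoid, 2.48 in biphasic and 2.37 in epithelioid tumors. The sarcomatoid call (adjusted p 0.0311) was lost with quantile normalization (1.03, adjusted p 0.105), with centring on the array median (1.00, adjusted p 0.11) and with a fit of only the sarcomatoid and control arrays (adjusted p 0.0628), and had an adjusted p of 0.00016 without MWCNT D replicate 2 (1.83). It was also lost without any 1 of the other sarcomatoid tumors or of the controls (1.21 to 1.45, adjusted p 0.0542 to 0.0914). In MWCNT B tumors the calls of Cd86 (2.47, adjusted p 0.0516) and Cd276 (2.68, adjusted p 0.0527) were lost without replicate 2, and that of Cd276 without replicate 1 (2.09, adjusted p 0.115), each with 1 tumor left that is assumed to vary like the other groups. In MWCNT C tumors the call of Cd276 was lost without replicate 3 (1.73, adjusted p 0.0615).

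Set against all probe sets called higher, these counts were 3 of 5 genes where the share was 20.8% (MWCNT B), 21.9% (MWCNT C), 22.3% (amosite), 23.3% (sarcomatoid), 24% (biphasic) and 24.6% (epithelioid), and 2 of 5 where it was 22.4% (MWCNT D). Each count includes Cd80, whose control values were near background. Ctla4 changed by -0.01 to 0.20 and Ido1 by -0.00 to 0.59 over the same 7 comparisons, and neither was called in any of them.

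**Figure D2:**
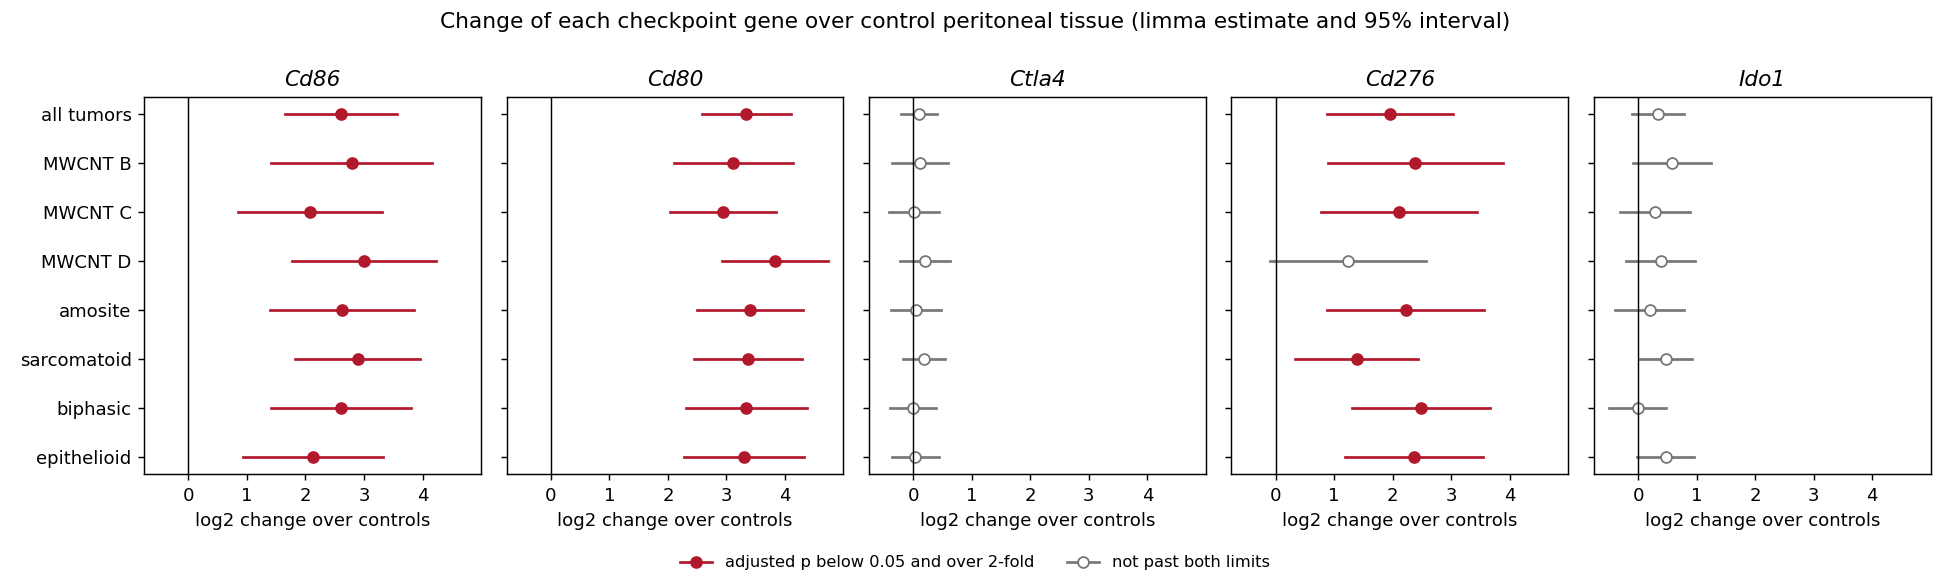
Log2 change over the 3 controls of the 5 checkpoint genes, each by its main probe set (limma estimate, 95% interval as a bar). Rows are all tumors, the 4 inducers and the 3 tumor types, with called changes as filled symbols. Cd86 and Cd80 are called in every row, Cd276 in every row except MWCNT D (1.24), and Ctla4 and Ido1 in none.

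Between tumors, no checkpoint gene was called, whether tumors were grouped by type or by inducer. The share of all probe sets called was 0.76% for sarcomatoid against epithelioid, 0.248% for sarcomatoid against biphasic and 0% for biphasic against epithelioid tumors, 0% for MWCNT against amosite tumors, 0.00322% for MWCNT B and C against MWCNT D, 0.00322% for any difference among the 4 inducers and 0.609% among the 3 types, so few genes of any kind passed. At an unadjusted p below 0.05, Cd276 and Ido1 passed in sarcomatoid against biphasic tumors. Cd276 was 1.10 lower in sarcomatoid than in biphasic tumors on the log2 scale (-1.10, 95% interval -2.15 to -0.05, limma p 0.0421, adjusted p 0.507). It differed by -0.99 between sarcomatoid and epithelioid tumors (95% interval -2.04 to 0.06, adjusted p 0.408). On the second probe set these 2 differences were -1.09 (limma p 0.244) and -0.91 (limma p 0.329). On the main probe set Cd276 read 9.82, 9.68, 9.26, 7.33 and 9.50 in the 5 sarcomatoid tumors, with a mean of 9.12 ± 1.02 (SD, n = 5). In the 6 biphasic and epithelioid tumors it ran from 9.51 to 10.60, with a mean of 10.16 ± 0.44 (SD, n = 6). The difference of -1.04 had an exact permutation p of 0.0152 over 462 splits, and without MWCNT D replicate 2 it was -0.60 with an exact p of 0.0381. These were among 15 exact tests (5 genes in 3 comparisons), of which 4 had a p below 0.05. Mesothelial genes were also lower in sarcomatoid tumors, with 4 of 10 called against epithelioid and 3 of 10 against biphasic tumors. Their part in the Cd276 difference was not tested.

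Ido1 was 0.48 higher in sarcomatoid than in biphasic tumors (95% interval 0.04 to 0.92, limma p 0.0336, adjusted p 0.472), at values near background. Sarcomatoid tumors held 4.67 to 5.43 and biphasic tumors 4.43 to 4.90, so the groups overlapped. Cd86 averaged 8.30 ± 0.82 (SD, n = 5) in sarcomatoid and 7.54 ± 0.67 (SD, n = 3) in epithelioid tumors, with biphasic tumors between them at 7.30, 7.80 and 8.92, and no neighbours in that order differed beyond their spread. The Cd86 difference between MWCNT and amosite tumors was -0.01 (95% interval -1.04 to 1.02, adjusted p 0.999), an interval that leaves room for a 2-fold difference either way. For Cd276 the same difference was -0.31 (95% interval -1.43 to 0.80, adjusted p 0.993). MWCNT B and C tumors against MWCNT D tumors differed by -0.80 in Cd80 (95% interval -1.61 to 0.02, adjusted p 0.652) and by 1.01 in Cd276 (95% interval -0.20 to 2.21, adjusted p 0.67).

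Of the 10 pairs of checkpoint genes compared over the 11 tumors, none had an adjusted permutation p below 0.05, and the strongest, Cd80 with Cd276 (Pearson r -0.69, adjusted permutation p 0.111; Spearman rho -0.42, adjusted 0.511), had r -0.30 without the 2 tumors farthest from the median of Cd80. Each gene was also set against the mean log2 signal of 3 lists, T cell genes, macrophage genes and interferon gamma signaling genes, in 15 relations with p-values adjusted over them, of which 7 had an adjusted Pearson permutation p below 0.05. Cd86 followed the interferon gamma list most closely (r 0.91, permutation p 9e-05, adjusted 0.00135; Spearman rho 0.80, permutation p 0.00487, adjusted 0.0365; r 0.79 without the 2 farthest tumors). It also followed the macrophage list (r 0.72, adjusted permutation p 0.035; rho 0.69, adjusted 0.0703; r 0.51 without the 2 farthest tumors) and the T cell list (r 0.73, adjusted permutation p 0.0107; rho 0.70, adjusted 0.0703; r 0.58 without the 2 farthest tumors). When MWCNT D replicate 2 was left out, only 2 relations passed, by Pearson r. They were Cd86 with the interferon gamma list (r 0.86, adjusted permutation p 0.0167) and with the macrophage list (r 0.83, adjusted permutation p 0.0167). By rank neither passed (Spearman rho 0.73 and 0.81, adjusted permutation p 0.0755 for both).

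The other relations did not pass without that tumor. Ctla4 with the T cell list had r 0.81 (adjusted permutation p 0.0107; rho 0.81, adjusted 0.0365) and 0.61 without the 2 farthest tumors, and with the interferon gamma list r 0.76 (adjusted permutation p 0.0249; rho 0.69, adjusted 0.0703) and 0.42 without the 2 farthest. Cd80 with the T cell list had r 0.68 (adjusted permutation p 0.0431; rho 0.42, adjusted 0.336) and 0.16 without the 2 farthest. Cd276 with the T cell list had r -0.87 (adjusted permutation p 0.0446; rho -0.50, adjusted 0.263), and -0.00 without the 2 farthest, so that this relation rests on MWCNT D replicate 2 and MWCNT C replicate 3. None of the 15 relations passed without both tumors that held pancreatic enzymes.

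**Figure D3:**
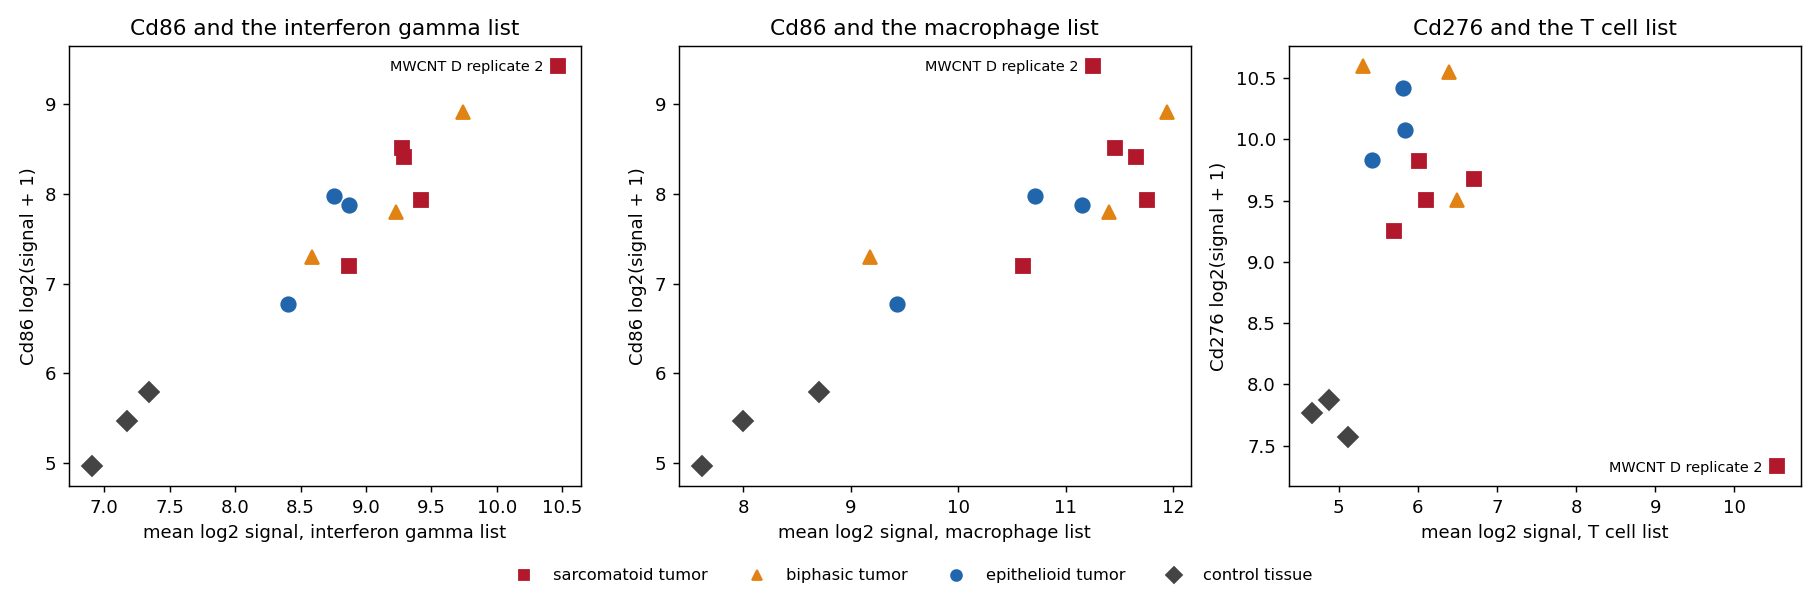
Log2(signal + 1) of Cd86 against the mean log2 signal of the interferon gamma and macrophage lists, and of Cd276 against that of the T cell list, 1 point for each array. Cd86 climbs with the interferon gamma list over the 11 tumors (r 0.91), and in the right panel the relation of Cd276 hangs on MWCNT D replicate 2 at 7.33.

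The genes whose pattern over the 11 tumors was most like that of Cd86, among 11397 genes whose log2 signal averaged 6 or more in them, were Ly86, which encodes MD-1, a partner of the RP105 receptor (r 0.97), Il10ra, a receptor chain for interleukin 10 (r 0.97), and Il6r, the interleukin 6 receptor (r 0.97). All 3 had r of 0.95 to 0.96 without MWCNT D replicate 2. For Cd276 they were Gnal, a G protein alpha subunit (r 0.96), the kinase gene Cdk14 (r 0.95) and Pdia4, an endoplasmic reticulum foldase (r 0.94). Gnal varied little, over 6.21 to 6.81 in the tumors. Without that tumor these 3 genes had r of 0.72 to 0.82 with Cd276, and Adam15, Def8 and Itm2b came first (r 0.91 to 0.93). For Ctla4 the nearest genes were the nuclear receptor Nr4a3, the leukocyte integrin chain Itgb2 and Acap1 (r 0.91 to 0.93), with 0.83 to 0.87 without that tumor. These are descriptions over tumors that share 1 array platform and that 1 divergent tumor.

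Most of the other checkpoint genes measured rose in tumors. Of 24 other checkpoint receptors and ligands 18 were measured, and 13 rose and none fell (median log2 change 2.11, against 0.34 over all probe sets). The share called higher over all probe sets was 24.5%. Nectin2, a ligand of the inhibitory receptor TIGIT, averaged 8.70 in tumors and 4.75 in controls (log2 change 3.95, SE 0.60, adjusted p 8.08e-05, or 3.70 with signals below 5 raised to 5). Lgals3, encoding galectin-3, a ligand of Lag3, averaged 13.05 in tumors and 9.22 in controls (3.84, SE 0.40, adjusted p 2.73e-06). Vsir, encoding the checkpoint ligand VISTA that human mesotheliomas are known to carry, had 7.77 to 10.49 in tumors and 6.66 to 7.60 in controls (2.61, SE 0.48, adjusted p 0.000415). Ceacam1, a ligand of the receptor encoded by Havcr2, changed by 2.57 (SE 0.51, adjusted p 0.000712). These 4 genes were named as the largest called changes of the list without overlap between the groups. Their lack of overlap was thus a condition and not a result. The other genes that rose were Tnfrsf14, Cd200r1, Cd200, Sirpa, Lgals9, Pvr, Cd47, Nectin3 and Klrc1, of which Klrc1 lay near background on every array and had a change of 0.00 with signals below 5 raised to 5. After median centring 11 of the 18 rose and none fell, and without MWCNT D replicate 2 it was 13 and none.

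Costimulatory receptors and ligands were measured for 11 of 18 genes, of which 5 rose and none fell (median 1.54). Over all probe sets, 24.5% were called higher in tumors. Cd28, the stimulatory receptor of Cd80 and Cd86, averaged 6.22 in tumors and 4.67 in controls, without overlap (1.55, SE 0.29, adjusted p 0.000476). Its control mean lay below the log2 signal of 5 treated as near background. Tnfsf9, the ligand 4-1BBL, changed by 1.68 (SE 0.50, adjusted p 0.0116) and Cd48, a ligand of the receptor 2B4, by 1.54 (SE 0.17, adjusted p 4.24e-06). Tnfrsf9, the receptor of Tnfsf9, and Icos also rose. Cd40, the receptor that raises Cd80 and Cd86 on antigen-presenting cells, averaged 6.73 in tumors and 5.02 in controls (1.71, adjusted p 0.101), with 11.01 in MWCNT D replicate 2. After median centring 3 of the 11 rose and none fell, and with signals below 5 raised to 5 it was 4 and none.

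**Figure D4:**
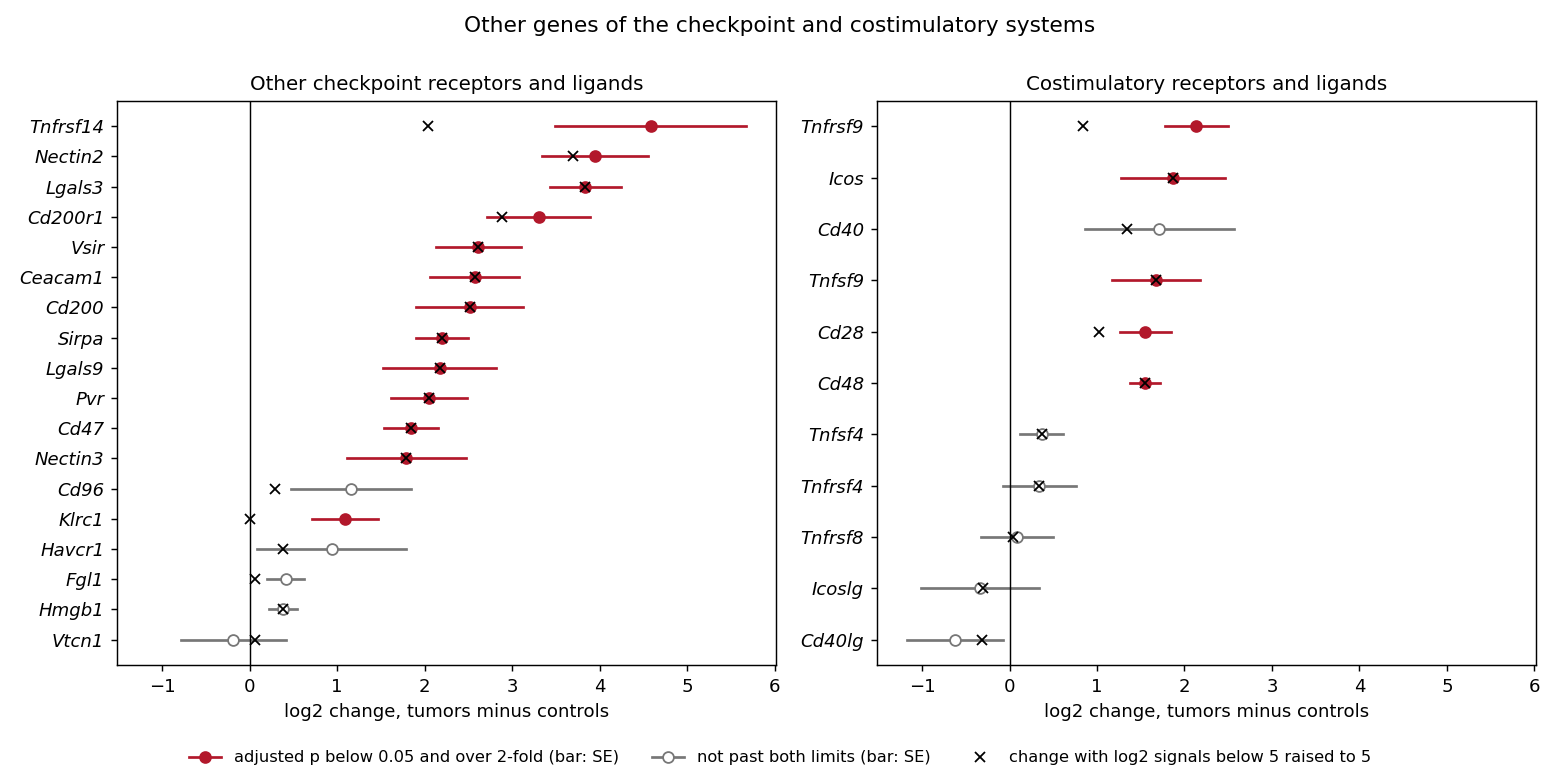
Log2 change between 11 tumors and 3 controls (limma estimate, SE as a bar) of 18 other checkpoint genes and 11 costimulatory genes, with called changes as filled symbols and crosses for the change with log2 signals below 5 raised to 5. In the checkpoint list 13 genes are called higher and in the costimulatory list 5, and the cross of Klrc1 is at 0.00.

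Markers of the cells that could carry these genes moved in different ways. Macrophage genes rose in 12 of 13 cases (median 2.87), with a list mean of 9.18 to 11.95 in tumors and 7.62 to 8.71 in controls, and Cd68 averaged 11.02 in tumors and 6.99 in controls. Their summed signal was 10823 to 60080 in tumors and 3419 to 7054 in controls. Of 7 dendritic cell genes 6 rose (median 2.57), among them Itgax and Cd83. After median centring 4 dendritic cell genes rose and 1 fell, and 11 of the 13 macrophage genes rose. With that centring, 4801 of the 31042 probe sets were called higher. Of 13 T cell genes 3 rose (Lck, Cd8a and Cd8b, median over the list 1.59). Over all probe sets 24.5% were called higher in tumors, and the T cell count is near that share. The T cell list mean was 5.31 to 10.54 in tumors and 4.66 to 5.12 in controls. The defining marker Cd3e averaged 7.06 in tumors and 5.47 in controls (adjusted p 0.157). Without MWCNT D replicate 2, 7 of the 13 T cell genes rose, and with signals below 5 raised to 5 only 1 did. The share of these cells in the rise of Cd86 and Cd80 was not tested.

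The list of interferon gamma signaling genes and targets held the pathway's receptors and kinases and genes that it induces, many of them in antigen presentation. It was measured for 21 of 23 genes, of which 16 rose and none fell (median 2.05), where 24.5% of all probe sets were called higher. After median centring 14 of its genes rose and 1 fell. Tap1, a peptide transporter of the class I pathway, changed by 5.07 (SE 0.54, adjusted p 3.27e-06) and the chemokine gene Cxcl10 by 4.17 (SE 0.67, adjusted p 0.000122). Control values of both were near background (means 3.93 and 4.06), and with signals below 5 raised to 5 the changes were 3.96 and 3.23. The immunoproteasome genes Psmb8 and Psmb9 changed by 3.90 and 3.87 (adjusted p 1.01e-06 and 1.85e-06). Ifng itself was near background, at 2.64 to 4.39 in tumors and 3.45 to 3.74 in controls, with a log2 change of -0.20 (adjusted p 0.597).

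Of 15 measured genes of the tryptophan and kynurenine pathway, in which Ido1 acts, 4 rose and 2 fell (median 0.78), and after median centring 3 rose and 3 fell. The counts before centring are near the shares over all probe sets, of which 24.5% were called higher and 10.4% lower in tumors. After centring, 10301 of the 31042 probe sets were called, 4801 of them higher. The centred counts are to be read against these numbers. Slc7a5, a tryptophan carrier, averaged 8.42 in tumors and 4.42 in controls (SE of the change 0.31, adjusted p 1.37e-07), with a change of 3.42 when signals below 5 were raised to 5. Afmid, which acts after Ido1, changed by 1.25, Ahr, a receptor for kynurenine, by 2.44, and its target Cyp1b1 by 2.77 (SE 0.67, adjusted p 0.00285). Kyat3 and Haao, enzymes further down the pathway, fell by 1.61 (SE 0.37, adjusted p 0.00202) and 1.48 (SE 0.11, adjusted p 7.34e-08) on the log2 scale. Tdo2, which catalyses the same step as Ido1, averaged 4.92 in tumors and 5.08 in controls, near background.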

How the data were processed

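RNA of 11 peritoneal mesotheliomas and 3 control peritoneal tissues was labelled with a 3' IVT kit and hybridized to Affymetrix rat genome arrays. The authors normalized the arrays with PLIER in the Transcriptome Analysis Console and deposited linear intensity values for 31099 probe sets, with no detection calls. After removal of 57 control probe sets, log2(signal + 1) was analysed for 31042 probe sets. Gene symbols came from the platform annotation (20826 probe sets with 1 symbol, 436 with several, 9780 with none), and 20758 were found in RefSeq by gene ID. The number of arrays limits the precision.

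Groups were taken from the sample labels. Models over all groups of a factor were run in limma 3.58.1 (R 4.3.3) for 15 comparisons and tested on simulated data with known changes. Exact permutation tests and permutation tests with 100000 resamples used numpy 2.4.6. Other genes were named where they were the largest called, non-overlapping changes of a list with a group mean log2 signal of at least 8; Cd28, Cd40, Ptpn11, Tdo2, Ifng, Calb2, Cd3e, Afmid, Ahr and the genes listed only by name were named outside that rule, after their values were seen. The 5 checkpoint genes and all 16 lists were chosen with earlier results of these data known. Alternatives were a pseudocount of 16, raising log2 signals below 5 to 5, keeping probe sets that averaged 6 or more, quantile normalization, centring on the array median, robust moderation with a trend, the compared groups alone, a block on the replicate number, the other factor as a covariate, the probe set with the largest change, and leaving out each array. Leaving out both tumors with pancreatic signal, and the exact tests, lists and most similar genes under a floor or without MWCNT D replicate 2, were added after the data were seen.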

Additional observations from a re-analysis of the deposited data

Results flagged for a closer look

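Of 21 groups of 4 to 10 arrays tested for a single distant value (7 probe sets in the sarcomatoid tumors, the MWCNT tumors, and the biphasic and epithelioid tumors together), 5 had one, where chance gives about 1 in 20, and in all 5 it was MWCNT D replicate 2. Cd276 in the sarcomatoid tumors was 7.33 there, with the next value at 9.26 (gap over range 0.772, critical value 0.71), and over the 8 MWCNT tumors the ratio was 0.589 (critical value 0.526). The second Cd276 probe set gave 5.56 there, with ratios of 0.784 in the sarcomatoid and 0.713 in the MWCNT tumors. Cd80 in the sarcomatoid tumors was highest there, at 5.21 with the next value at 4.31 (ratio 0.72). That tumor also held the highest T cell list mean, 10.54, and the 5 probe set results share 1 array.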

How the results depend on the processing

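Of 1511 results of the 5 genes under alternatives, none reversed while called, 1483 kept their side of the threshold, 25 lost the call, 3 gained it, and 81 uncalled values changed sign. Under the main settings the members called against controls were 3 for all tumors and 2 for MWCNT D tumors. With a floor at a log2 signal of 5, or a filter at a mean of 6, these were 2 for all tumors and 1 for MWCNT D tumors. The controls of Cd80 were raised to that floor. Under that filter Cd80, Ctla4 and Ido1 were not tested, and only Cd86 and Cd276 remained. Leaving out 1 array at a time gave 1 to 3 called members in MWCNT B tumors (1 without MWCNT B replicate 2), 2 to 3 in MWCNT C tumors (Cd276 lost without MWCNT C replicate 3), 2 to 3 in MWCNT D tumors and 2 to 3 in sarcomatoid tumors, where Cd276 lost its call without MWCNT B replicate 2, MWCNT C replicate 1 or 2, amosite replicate 3, or any 1 control (adjusted p 0.0542 to 0.0914). Of the 7 correlations with an adjusted Pearson permutation p below 0.05, 2 were left by that measure without MWCNT D replicate 2. Without both tumors with pancreatic signal (9 tumors) 0 were left. Cd80 lost its call in every comparison with controls at a floor of 5, and with a pseudocount of 16 in MWCNT B (0.90), MWCNT C (0.82) and epithelioid tumors (0.996). The replicate numbers did not pair the arrays: same-numbered arrays of different groups had deviations correlated at -0.29 to 0.39 over 26 pairs, and 5 of 14 arrays correlated best with their own number. With the replicate number as a block 3 members were called for all tumors and 2 for MWCNT D tumors, as without it. Cd80 and Ido1 are limited by signals near background, and Ctla4 by a low signal that varied little. Groups of 2 to 5 tumors limit the comparisons between types and inducers.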

Other observations

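Of 12 genes on a list of adenosine and arginine enzymes, which also holds adenosine receptors, prostaglandin enzymes and the cytokines Tgfb1 and Il10, 7 rose and none fell (median 2.35; 5 of 12 after median centring), where Arg2, Nos2, Ptges, Adora2a and Il10 were not called. Those that rose include Adora2b, an adenosine receptor (log2 change 2.94, SE 0.60, adjusted p 0.000851), and Ada, which degrades adenosine (2.37, SE 0.42, adjusted p 0.000265). Of 10 receptor phosphatases, kinases and adaptors 5 rose and none fell (median 1.55; with centring 4 rose and 2 fell), among them Ptpn6, encoding SHP-1 (3.05, SE 0.58, adjusted p 0.000469), Csk (a kinase, 2.73, SE 0.37, adjusted p 3.06e-05) and Inpp5d, encoding SHIP1 (2.09, SE 0.48, adjusted p 0.00223). With signals below 5 raised to 5 it was 3 of the 10. Under the main settings 24.5% of all probe sets were called higher, the share to set beside both lists. Ptpn11, encoding SHP-2, averaged 11.21 in tumors and 11.83 in controls (-0.61, adjusted p 0.0495), under the 2-fold limit.

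Of 5 regulatory T cell genes Lrrc32 rose (2.57) and Ikzf2 fell by 1.69 on the log2 scale. Of 9 NK and cytotoxic genes 3 rose, and none of 6 B and plasma cell genes and none of 7 endothelial genes was called. Of 10 pancreatic genes 1 rose, or 5 with 1 that fell when both tumors with pancreatic signal were left out. Over all probe sets, 24.5% were called higher and 10.4% lower in tumors. On the control arrays the 3' minus 5' log2 signal of beta-actin was -1.24 to -0.65, against 0.30 to 0.60 on the tumor arrays, and its part in the results was not tested.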
